A study of Mus musculus with 28 samples.

Results

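The cell-surface receptors and co-receptors Ptch1, Hhip, Gas1, Cdon and Boc, the transducer Smo and the transcription factors Gli1, Gli2 and Gli3 of the Hedgehog pathway were followed by RNA sequencing across 8 culture conditions of O9-1 cells, a mouse line from the cranial neural crest, the embryonic population that forms much of the skull and face. These 9 genes were chosen by name, with earlier results of these data known. Each matched 1 of the 54429 gene identifiers counted, 28192 of which had at least 1 count. Hedgehog proteins are secreted signals that bind Patched-1, the product of Ptch1, which holds Smoothened, the product of Smo, inactive until ligand arrives. Gas1, Cdon and Boc bind ligand together with Ptch1 at the cell surface, whereas Hhip binds ligand and keeps it from the receptor. Active Smoothened acts in the primary cilium to shift the balance of Gli2 and Gli3 away from repressor and towards activator forms. Ptch1, Hhip and Gli1 are themselves transcribed in response to the signal. In the head, the pathway is known for the survival and patterning of neural crest cells in the facial prominences, and in the skeleton for the growth of cartilage and bone.

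The cultures were kept at 21% O2 (normoxic, 4 libraries in each group) or at 0.5% O2 (hypoxic, 3 libraries in each group), and each oxygen level held the same 4 states. Proliferating cells grew in DMEM conditioned by STO cells with 15% fetal calf serum (FCS), non-essential amino acids, beta-mercaptoethanol, bFGF at 25 ng/ml and LIF at 5 ng/ml. Chondrocyte cultures spent 3 days in the osteoblast medium and then 7 days as micromasses on matrigel in alpha-MEM with 5% FCS, insulin-transferrin-selenium, dexamethasone at 0.1 µM, TGF-beta3 at 10 ng/ml and BMP-2 at 50 ng/ml. Osteoblast cultures spent 10 days in alpha-MEM with 10% FCS, 10 mM beta-glycerophosphate, 0.1 µM dexamethasone and BMP-2 at 100 ng/ml. Smooth muscle cultures spent 3 days in DMEM with 10% FCS. All media held penicillin and streptomycin, no group was given a Hedgehog ligand or inhibitor per the labels, and all libraries came from 1 cell line. The labels do not say whether libraries of a group came from separate cultures, so p-values measure the spread between these libraries, which may be technical.

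Total counts per library ran from 19.87 to 64.69 in units of 1000000 reads. Levels are counts per 1000000 (CPM) after scaling by the trimmed mean of M values, given as mean ± SD, with n = 4 for normoxic and n = 3 for hypoxic groups. A gene was called when its adjusted p in edgeR's quasi-likelihood test was below 0.05, and changes are given on the log2 scale with their standard error (±). Libraries from smooth muscle cultures at 0.5% O2 stood apart, all 3 of them: mitochondrial ribosomal RNA took 11.6% to 13.3% of their counts against 0.0252% to 0.0889% in the other 25 libraries, and smooth muscle markers were low there, with a summed level of 443 to 470 CPM over 12 markers against 637 to 674 CPM in normoxic proliferating cells and 5585 to 6194 CPM in normoxic smooth muscle cultures. Acta2, a contractile actin, was at 13.5 to 29.0 CPM in the hypoxic smooth muscle libraries against 3111 to 3528 CPM in the normoxic ones. Myh11, smooth muscle myosin, was low in both, at 0 to 1.32 against 0.951 to 2.74 CPM, and overlapped between them. In the normoxic osteoblast libraries 1, 2 and 3 the osteoblast markers Sp7, Alpl and Ibsp lay at or below 2.56 CPM, lower than in both chondrocyte groups, while library 4 held Sp7 at 46.0 CPM, Alpl at 40.6 CPM and the cartilage collagen Col2a1 at 786 CPM, against 36.0 to 44.1 CPM of Col2a1 in the other 3. The part of these differences in the values below was not tested. The neural crest gene Twist1 was present in every group at 45.9 CPM or more, and the defining neural crest gene Sox10 was at 0 or below 0.1 CPM in all 28 libraries.

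On mm10, Gli1 lies at chr10:127329882-127341974 (minus strand), Gli2 at chr1:118834132-119053619 (minus), Gli3 at chr13:15463235-15730026 (plus), Ptch1 at chr13:63508328-63573598 (minus) and Smo at chr6:29735503-29761365 (plus). Hhip lies at chr8:79965851-80058006 (minus), Gas1 at chr13:60174405-60177365 (minus), Cdon at chr9:35421128-35507652 (plus) and Boc at chr16:44485049-44558897 (minus). Values are totals over each gene, so isoforms and single exons were not separated.

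Per kilobase of exon, Gas1 and Smo were the highest of the 9 members in every group except the normoxic osteoblast cultures, where Boc was second. In normoxic proliferating cells Gas1 averaged 51.1 CPM per kilobase and Smo 31.2, followed by Gli3 at 4.50, Ptch1 at 2.88 and Gli2 at 1.36. Hhip, Cdon, Gli1 and Boc each lay below 1 CPM per kilobase there. In the normoxic osteoblast cultures the co-receptors dominated, with Gas1 at 629 CPM per kilobase and Boc at 62.4, above Smo at 44.96. Gli1, the activator that is itself a target of the signal, had no group mean above 0.375 CPM per kilobase.

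**Figure D1:**
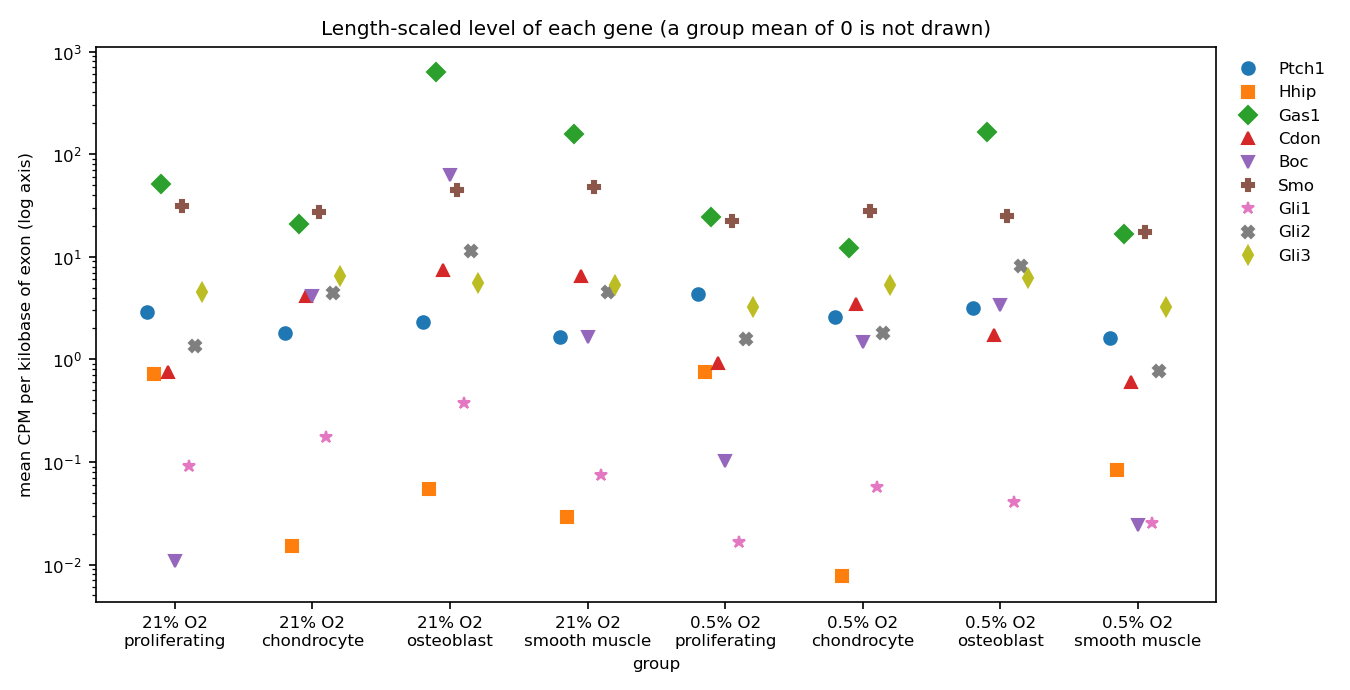
Mean level of each of the 9 genes per kilobase of exon (log axis, CPM per kilobase) in the 8 groups, from 4 libraries per group at 21% O2 and 3 at 0.5% O2. Gas1 and Smo lie at the top in 7 of the 8 groups, no mean of Gli1 exceeds 0.375 CPM per kilobase, and Hhip in hypoxic osteoblast cultures is not drawn because its mean is 0.

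Promoter windows of 250 bases before the RefSeq start (GRCm38.p6) are shown for Gas1, Gli2 and Smo, 3 members that were lower in hypoxic than in normoxic smooth muscle cultures. The window of Gas1 is chr13:60177536-60177785 (minus strand), that of Gli2 chr1:119053620-119053869 (minus) and that of Smo chr6:29735247-29735496 (plus). Each is written 5′ to 3′ in lower case, with matches to a searched motif in capitals.
Gas1: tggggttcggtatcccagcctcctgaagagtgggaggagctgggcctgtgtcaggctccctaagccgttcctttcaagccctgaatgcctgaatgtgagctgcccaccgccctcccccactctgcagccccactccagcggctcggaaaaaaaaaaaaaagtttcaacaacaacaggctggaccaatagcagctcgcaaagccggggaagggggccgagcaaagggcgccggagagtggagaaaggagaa
Gli2: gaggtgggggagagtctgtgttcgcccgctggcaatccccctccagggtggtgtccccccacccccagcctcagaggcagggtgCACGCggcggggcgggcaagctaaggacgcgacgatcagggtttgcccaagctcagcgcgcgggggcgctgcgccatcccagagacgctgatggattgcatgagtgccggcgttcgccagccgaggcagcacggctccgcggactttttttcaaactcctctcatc
Smo: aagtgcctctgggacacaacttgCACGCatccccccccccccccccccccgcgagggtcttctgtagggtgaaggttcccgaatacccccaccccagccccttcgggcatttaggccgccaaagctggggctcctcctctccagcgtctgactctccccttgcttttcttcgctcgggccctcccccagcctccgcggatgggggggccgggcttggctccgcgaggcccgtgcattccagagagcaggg
The letters searched, on both strands, were GACCACCCA, a GLI consensus, and ACGTG and GCGTG, both forms of the core of the hypoxia response element. The capitals CACGC in Gli2 and Smo are GCGTG read on the other strand, starting 166 bases before the Gli2 start and 227 bases before the Smo start. Of the 9 members, 7 had an entry, and GCGTG was in 2 of these windows against 28.2% of all 32851 promoter windows. ACGTG was in 0 of the 7 against 16.6% of all, and GACCACCCA in 0 of the 7 against 0.225% of all. These matches describe letters only, and a window without them says nothing on the factors. Gli1 and Boc had no entry.

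At 21% O2, most members changed between proliferating and differentiation cultures, at shares to be read against a background in which most genes changed. Chondrocyte against proliferating cultures gave 9 of 9 members called, 5 higher and 4 lower, where 74.9% of all tested genes were called, 37.7% higher and 37.2% lower. In osteoblast cultures 8 of 9 were called, 6 higher and 2 lower, against 78.7% of all genes (40.9% higher, 37.8% lower). Smooth muscle conditions also gave 8 of 9, 6 higher and 2 lower, against 79.7% (40.8% higher, 38.9% lower). The median log2 fold change of the 9 members was 0.56, 2.02 and 0.59 in these 3 comparisons, beside 0.00, 0.07 and 0.03 for all tested genes, and the 3 comparisons share the normoxic proliferating libraries.

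At 0.5% O2, Gli1 had too few counts to be tested in any differentiation comparison, leaving 8 members. Hypoxic chondrocyte cultures gave 7 of 8 called, 4 higher and 3 lower, against 69.5% of all genes (34.9% higher, 34.6% lower). Hypoxic osteoblast cultures gave 7 of 8, 5 higher and 2 lower, against 71.3% (36.2% higher, 35.1% lower). In hypoxic smooth muscle cultures 5 of 8 were called and all 5 were lower, against 70% of all genes, 33.8% higher and 36.2% lower. The members' median log2 fold changes were 0.24, 0.91 and -0.67, beside -0.02, 0.00 and -0.07 for all genes, with the hypoxic proliferating libraries shared.

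Between oxygen levels, more of the called members were lower than higher at 0.5% O2 in each state in the main fits. Proliferating cells gave 6 of 9 called, 2 higher and 4 lower at 0.5% O2, against 65.4% of all genes (33.1% higher, 32.3% lower). With the replicate number as a block 8 were called there. The 3 uncalled in the main fit, Gli2, Hhip and Cdon, had estimates above 0. Chondrocyte cultures gave 5 of 8, 1 higher and 4 lower, against 22.2% (10.4% higher, 11.8% lower), and 3 members and 2091 in place of 3157 genes were called without hypoxic chondrocyte library 3. Osteoblast cultures gave 6 of 8, all 6 lower, against 54.3% (27.0% higher, 27.3% lower). Smooth muscle cultures gave 7 of 8, 1 higher and 6 lower, against 75.6% (35.4% higher, 40.2% lower). Median log2 fold changes of the members were 0.05, -0.56, -1.39 and -1.87 in proliferating, chondrocyte, osteoblast and smooth muscle cultures, beside 0.01, -0.01, -0.03 and -0.12 for all genes. The summed markers of the labelled type did not overlap between oxygen levels in chondrocyte or osteoblast cultures. In chondrocyte cultures 14 chondrocyte markers summed to 929 to 1409 CPM at 0.5% O2 and 3249.9 to 9666 CPM at 21% O2, with Col2a1 at 195 to 376 against 1047 to 5815 CPM and Acan at 459 to 734 against 1429 to 2529.8 CPM. In osteoblast cultures 12 osteoblast markers summed to 13774 to 15842 CPM at 0.5% O2 and 6824 to 10693 CPM at 21% O2. Sp7 was at 97.3 to 97.5 against 0.679 to 46.0 CPM and Ibsp at 64.1 to 76.1 against 0.389 to 3.25 CPM. That list summed higher in both chondrocyte groups, and in normoxic smooth muscle cultures to 4563 to 6854 CPM, overlapping normoxic osteoblast cultures. Acta2 overlapped between these 2 groups too, at 3111 to 3528 and 2863 to 4222 CPM, as did the smooth muscle marker sums. Sums of some other lists did not overlap between oxygen levels, and others did. In chondrocyte cultures osteoblast markers summed to 44685 to 51648 CPM at 0.5% O2 against 38641 to 46757 CPM, which overlapped. Smooth muscle markers there also overlapped, at 3409 to 4002 against 3659 to 4152 CPM. Chondrocyte markers overlapped in osteoblast cultures, at 673 to 706 against 209 to 1634 CPM. In osteoblast cultures, without overlap, 12 smooth muscle markers summed to 3538 to 3862 CPM at 0.5% O2 against 5634 to 7697 CPM. There 16 neural crest markers summed to 2355 to 2390.3 against 2904 to 3482 CPM, and 9 adipocyte markers to 55.2 to 60.5 against 9.42 to 12.5 CPM. Smooth muscle cultures held neural crest sums of 1015 to 1072 against 2664 to 2770 CPM, though Twist1 was higher at 0.5% O2, at 378 to 460 against 82.7 to 108 CPM. Their osteoblast markers summed to 1031 to 1228 against 4563 to 6854 CPM and chondrocyte markers to 28.9 to 38.4 against 122 to 152 CPM. Neural crest sums in chondrocyte cultures were 1050 to 1166 against 1172 to 1394 CPM. Summed levels of 12 cell cycle genes were higher at 0.5% O2 in osteoblast cultures, at 473 to 575 against 121 to 233 CPM (9 called higher and 0 lower, list median 2.33). In smooth muscle cultures they were also higher, at 674 to 731 against 494 to 570.4 CPM (10 higher and 0 lower, list median 0.62). They were lower in proliferating cells, at 1611 to 1630 against 2239 to 2700.1 CPM (0 higher and 11 lower), and in chondrocyte cultures, at 506 to 576 against 600.4 to 963 CPM (0 higher and 7 lower). Sums of 12 low oxygen response genes were 12385 to 13271 CPM at 0.5% O2 against 2001 to 2150 CPM in proliferating cells. They were 9110 to 9928 against 2894 to 4102 CPM in chondrocyte and 9562 to 11233 against 1235 to 1444 CPM in osteoblast cultures. Smooth muscle cultures held 37688 to 40080 against 753 to 792 CPM. List medians were 3.81, 1.65, 3.33 and 3.98 in these states, and 2.04 in normoxic chondrocyte against proliferating cultures. The part of these lists in the members' oxygen differences was not tested.

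The balance of higher and lower calls over all genes moved with the scaling of libraries. Scaling by library size alone shifted the median log2 fold change of all genes (-1.28 in hypoxic smooth muscle against hypoxic proliferating cultures, -1.37 against normoxic smooth muscle cultures), and the share of called genes that were higher went from 48.3% to 15.0% and from 46.8% to 15.6%. For the smooth muscle interaction the shift was -1.33 and the share went from 49.6% to 16.6%. Other splits that moved by more than 10 percentage points were those of normoxic chondrocyte (50.3% to 34.7% higher, median shift -0.35), hypoxic chondrocyte (50.2% to 31.8%, -0.33) and hypoxic osteoblast cultures (50.8% to 38.2%, -0.23) against proliferating cells. Between oxygen levels the split moved from 46.9% to 31.8% in chondrocyte cultures, with a shift of -0.08, and from 49.6% to 36.9% in osteoblast cultures, with a shift of -0.16. Changes of members, other named genes and list medians smaller than these shifts are relative to the other genes of the comparison.

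**Figure D2:**
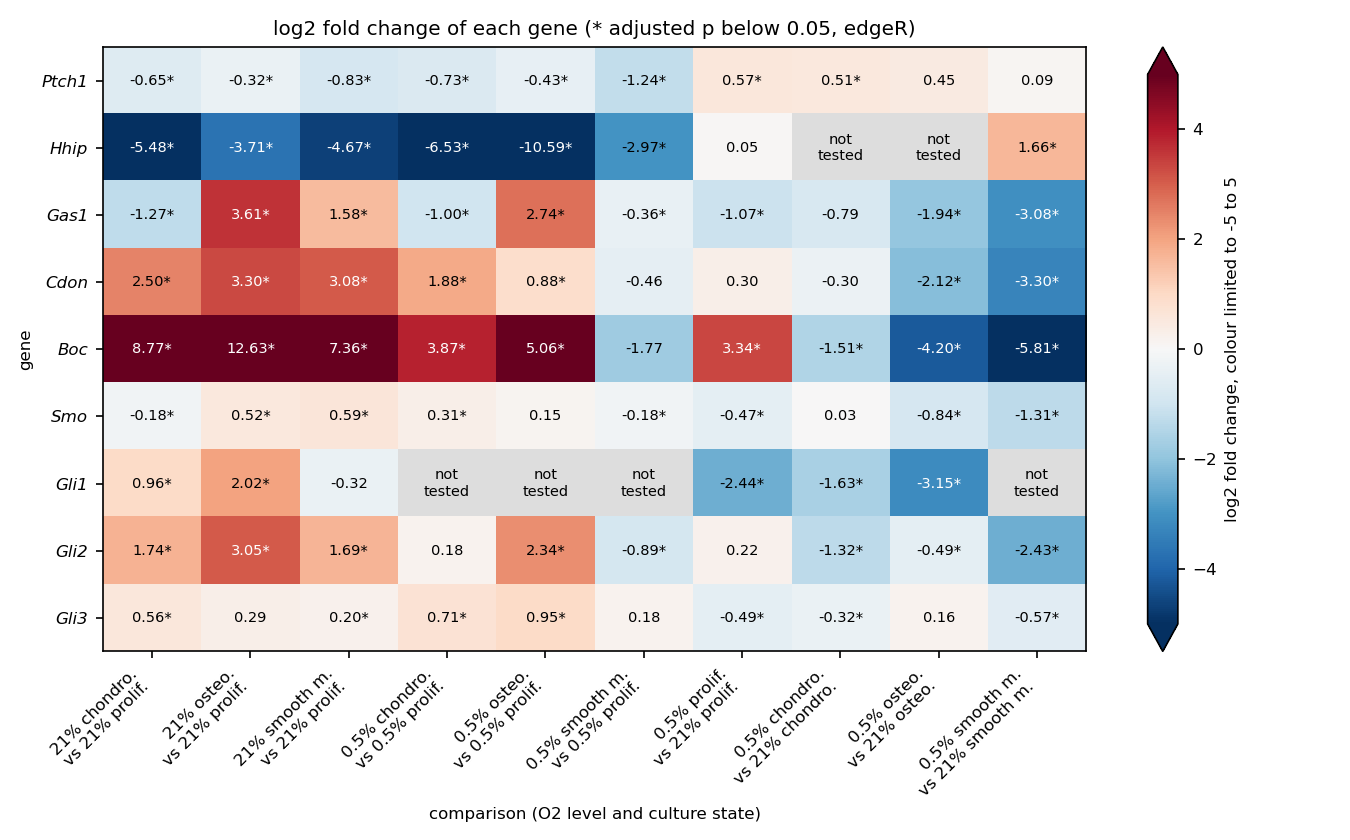
log2 fold change of each gene (rows) in the 10 comparisons of groups (columns; 21% and 0.5% are the O2 levels), with an asterisk where the edgeR adjusted p was below 0.05 and grey where the gene had too few counts to be tested. Ptch1 and Hhip are lower in all 6 differentiation comparisons, and the values beyond 10 for Boc and Hhip rest on groups with 7 and 0 counts, so their size depends on the model's prior count.

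Ligand transcripts were at the floor of detection. Shh, the ligand of the facial epithelium and brain, had 0 counts in all 28 libraries, which allows up to 0.0392 CPM in the library with the highest scaled total and 0.292 CPM in that with the lowest, counting error only. Ihh, the ligand of growth plate cartilage, had 56 counts in all and Dhh 46, and neither exceeded 0.537 CPM in any library. The hypoxic chondrocyte libraries held Ihh at 0.227, 0.275 and 0.332 CPM (7, 7 and 10 counts), above the chondrocyte libraries at 21% O2 with 0, 0.0804, 0 and 0.0364 CPM. Ihh was below the count filter and was not tested. Counts of 10 or fewer per library allow no finer comparison of the ligands.

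Genes that release or carry ligand were mostly too low to test. Of 13 ligand and release genes, 3 to 5 were tested in a pairwise comparison, and their medians rest on those few. Scube1 and Scube3, secreted proteins that help ligand leave the cell, rose in normoxic chondrocyte cultures, Scube1 to 10.0 ± 4.44 CPM from 0.00980 ± 0.0196 and Scube3 to 6.66 ± 3.64 CPM from 0.195 ± 0.0869. Scube3 also rose in hypoxic chondrocyte cultures, from 0.196 ± 0.0732 to 22.7 ± 5.58 CPM, by 6.83 ± 0.30 (adjusted p = 1.25e-09). These rises were not limited to chondrocyte cultures: Scube3 also rose in normoxic smooth muscle and hypoxic osteoblast cultures, at 4.17 ± 0.41 and 4.84 ± 0.31 (adjusted p = 1.76e-07 and 1.29e-09). Scube1 reached 1.70 ± 2.08 CPM in normoxic osteoblast and 1.54 ± 0.596 CPM in hypoxic chondrocyte cultures, both called higher than proliferating cells (adjusted p = 6.49e-04 and 1.02e-05). Scube1 was lower in hypoxic than in normoxic chondrocyte cultures, a log2 difference of -2.71 ± 0.45 (adjusted p = 0.00377). Hhat, the enzyme that adds palmitate to the ligand, was higher under hypoxia in the osteoblast cultures, at 29.1 ± 2.66 CPM under hypoxia and 8.09 ± 1.17 CPM at 21% O2, a difference of 1.85 ± 0.13 (adjusted p = 5.63e-06).

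Ptch1, the ligand receptor and a target of the signal, fell in all 6 differentiation comparisons and was higher under hypoxia in proliferating and chondrocyte cultures. In normoxic proliferating cells its levels were 40.1, 41.4, 42.8 and 39.4 CPM, and in the normoxic chondrocyte libraries 22.6, 26.7, 25.1 and 27.6 CPM. The normoxic osteoblast libraries held 33.4, 34.7, 37.4 and 27.0 CPM and the smooth muscle libraries 25.7, 22.9, 20.9 and 24.6 CPM. None of these 3 groups overlapped the proliferating cells, and the changes were -0.65 ± 0.07, -0.32 ± 0.09 and -0.83 ± 0.07 (adjusted p = 6.19e-06, 0.0113 and 3.51e-08). As these are bulk cultures, fewer cells with a transcript and less of it per cell cannot be told apart, here and below.

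At 0.5% O2 Ptch1 stood at 60.0, 56.7 and 65.7 CPM in proliferating cells, above all 4 normoxic libraries, a difference of 0.57 ± 0.06 (adjusted p = 2.44e-06). Hypoxic chondrocyte libraries had 31.2, 39.6 and 39.2 CPM, again above their normoxic counterparts, by 0.51 ± 0.11 (adjusted p = 0.00557). Hypoxic osteoblast libraries ranged widely, at 56.7, 45.9 and 32.9 CPM, and overlapped the normoxic ones, with a difference of 0.45 ± 0.18 that was not called (adjusted p = 0.0566) but was in 3 of 10 alternative fits. In hypoxic smooth muscle libraries Ptch1 was at 26.0, 19.1 and 23.1 CPM, overlapping the normoxic ones (0.09 ± 0.13, adjusted p = 0.5261), but -1.27 and called lower when libraries were scaled by size alone. Against hypoxic proliferating cells Ptch1 fell, with a log2 fold change of -0.73 ± 0.10, -0.43 ± 0.16 and -1.24 ± 0.13 in chondrocyte, osteoblast and smooth muscle cultures (adjusted p = 2.18e-05, 0.0313 and 3.93e-06), and the osteoblast call was lost without hypoxic proliferating library 1 or 3 or hypoxic osteoblast library 2 (adjusted p = 0.0563, 0.0828 and 0.0570). In the order of group means every pair of neighbours overlapped, so the ladder of Ptch1 levels holds only between groups further apart.

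Hhip, the ligand-binding inhibitor, was highest in proliferating cells. It stood at 5.77, 5.79, 6.90 and 7.92 CPM in normoxic and 7.004, 6.91 and 6.52 CPM in hypoxic proliferating libraries, which overlapped and did not differ by the test (0.05 ± 0.14, adjusted p = 0.77). No library of the 6 differentiation groups exceeded 1.14 CPM. In normoxic chondrocyte libraries Hhip had 5, 2, 6 and 3 counts, in osteoblast libraries 6, 8, 9 and 35 and in smooth muscle libraries 12, 4, 9 and 10, and it fell, with a log2 fold change of -5.48 ± 0.27, -3.71 ± 0.43 and -4.67 ± 0.26 (adjusted p = 3.17e-09, 2.91e-05 and 1.44e-10). Normoxic osteoblast library 4 supplied 35 of the 58 osteoblast counts, and without it the change was -4.59. All 3 groups lay below every proliferating library.

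Under hypoxia Hhip had 4, 2 and 0 counts in chondrocyte libraries and fell, with a log2 fold change of -6.53 ± 0.40 (adjusted p = 7.47e-09). With 1 library left out that change ran from -7.39 to -5.94. The 3 hypoxic osteoblast libraries had 0 counts against 592 in hypoxic proliferating cells, at least 188-fold lower when the floor is 3 counts over the group. The normoxic osteoblast libraries held 58 counts, 35 of them in library 4, and Hhip was below the count filter of the oxygen comparisons in osteoblast and chondrocyte cultures. Hypoxic smooth muscle cultures had the highest mean outside proliferating cells, with libraries at 0.806, 0.389 and 1.07 CPM (11, 4 and 12 counts), all above the 0.376, 0.110, 0.267 and 0.301 CPM of normoxic smooth muscle libraries. That difference was 1.66 ± 0.63 (adjusted p = 0.0265), the only rise among the members between oxygen levels in smooth muscle cultures, and it was 0.31 and not called (adjusted p = 0.642) when libraries were scaled by size alone. It also lost its call without filter (adjusted p = 0.105) and without normoxic smooth muscle library 2 or hypoxic library 1 or 3 (adjusted p = 0.0655, 0.0605 and 0.124). The fall from hypoxic proliferating cells was -2.97 ± 0.34 (adjusted p = 1.16e-05).

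The co-receptors Gas1, Cdon and Boc differed widely between groups, and in osteoblast and smooth muscle cultures all 3 were lower at 0.5% than at 21% O2. Gas1, a membrane-anchored protein first known from growth-arrested cells, stood at 149.8, 155, 138 and 163 CPM in normoxic proliferating libraries and 2027, 2133, 2113 and 1173 CPM in normoxic osteoblast libraries. Library 4 of the osteoblast group was well below the other 3 but above every library of another group. The rise was 3.61 ± 0.19 (adjusted p = 1.16e-07) and 3.74 without that library. Smooth muscle libraries held 414, 454, 415 and 561 CPM, a rise of 1.58 ± 0.09 (adjusted p = 7.96e-10), whereas chondrocyte libraries held 36.6, 67.9, 56.2 and 85.9 CPM, a log2 fold change of -1.27 ± 0.22 (adjusted p = 6.26e-04). Gas1 was thus the 1 co-receptor with opposite changes among the normoxic differentiation cultures.

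Gas1 was called lower at 0.5% O2 in 3 of the 4 states. Proliferating libraries held 71.9, 79.8 and 64.7 CPM, osteoblast libraries 533, 541 and 374 CPM and smooth muscle libraries 52.0, 45.6 and 51.0 CPM, each entirely below its normoxic counterpart. The differences were -1.07 ± 0.07, -1.94 ± 0.23 and -3.08 ± 0.12 (adjusted p = 3.19e-08, 1.61e-04 and 4.01e-12). Chondrocyte libraries held 33.1, 41.3 and 33.6 CPM, which overlapped the normoxic ones, and the difference of -0.79 ± 0.28 was not called (adjusted p = 0.097), though it was in 4 of 10 alternative fits and without normoxic chondrocyte library 1 (-0.98, adjusted p = 0.00387). Against hypoxic proliferating cells Gas1 rose by 2.74 ± 0.14 in osteoblast cultures (adjusted p = 7.81e-09), fell, with a log2 fold change of -1.002 ± 0.10 in chondrocyte cultures (adjusted p = 2.92e-06) and fell, with a log2 fold change of -0.36 ± 0.10 in smooth muscle cultures (adjusted p = 0.0072), the last not called in 1 fit over all 28 libraries (adjusted p = 0.0752).

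Cdon, an immunoglobulin superfamily receptor also known from muscle differentiation, rose in all 3 normoxic differentiation cultures. It stood at 5.64, 6.22, 5.59 and 5.76 CPM in proliferating, 24.2, 33.1, 30.1 and 41.2 CPM in chondrocyte, 55.9, 57.9, 57.7 and 59.1 CPM in osteoblast and 46.3, 56.0, 50.2 and 48.3 CPM in smooth muscle libraries. All 12 differentiation libraries lay above all proliferating ones, with rises of 2.50 ± 0.15, 3.30 ± 0.07 and 3.08 ± 0.08 (adjusted p = 1.68e-08, 4.32e-10 and 3.49e-14). For Cdon, unlike Gas1, osteoblast library 4 lay close to the other 3, all within 55.9 to 59.1 CPM.

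At 0.5% O2 Cdon stood at 8.12, 7.31 and 6.10 CPM in proliferating libraries, close to the normoxic level (0.30 ± 0.13, adjusted p = 0.0566, not called). Chondrocyte libraries reached 32.1, 25.8 and 21.5 CPM, overlapping the normoxic ones (-0.30 ± 0.19, adjusted p = 0.308, not called) and above proliferating cells by 1.88 ± 0.16 (adjusted p = 2.93e-07). Osteoblast libraries reached 13.8, 14.7 and 10.95 CPM, a rise of 0.88 ± 0.15 (adjusted p = 1.04e-04) that left them below every normoxic osteoblast library, a log2 difference of -2.12 ± 0.12 (adjusted p = 1.17e-06). Smooth muscle libraries held 5.35, 5.54 and 2.95 CPM, below all 3 hypoxic proliferating libraries but not called against them (-0.46 ± 0.27, adjusted p = 0.149), and far below the normoxic smooth muscle libraries, a log2 difference of -3.30 ± 0.17 (adjusted p = 1.93e-10). Chondrocyte cultures were therefore the 1 differentiation state in which the Cdon level at 0.5% O2 overlapped that at 21% O2.

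Boc, the close relative of Cdon, went from near absence in normoxic proliferating cells to a level in normoxic osteoblast cultures second only to Gas1 per kilobase. Normoxic proliferating libraries held 3, 1, 1 and 2 counts, or 0.0776, 0.0131, 0.0319 and 0.0686 CPM. Normoxic chondrocyte libraries held 16.2, 20.9, 25.0 and 12.3 CPM, osteoblast libraries 242, 235, 224 and 411 CPM and smooth muscle libraries 5.26, 5.27, 5.53 and 13.1 CPM. No differentiation library overlapped a proliferating one, and library 4 was the highest of both the osteoblast and the smooth muscle groups. The fitted rises were 8.77 ± 0.39, 12.63 ± 0.40 and 7.36 ± 0.53 (adjusted p = 2.26e-09, 5.97e-09 and 3.50e-08). They rest on 7 counts in the proliferating group, so their size is loose, and without osteoblast library 4 the osteoblast rise was 12.35.

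In hypoxic proliferating cells Boc had 11, 15 and 13 counts, or 0.362, 0.546 and 0.448 CPM, above all normoxic proliferating libraries by 3.34 ± 0.62 (adjusted p = 3.09e-04). The differentiation cultures went the other way: hypoxic chondrocyte libraries held 8.04, 6.60 and 5.21 CPM, osteoblast libraries 17.9, 17.5 and 9.85 CPM and smooth muscle libraries 2, 0 and 2 counts, or 0.147, 0 and 0.179 CPM. Each of these 3 groups lay below its normoxic counterpart, a log2 difference of -1.51 ± 0.25, -4.20 ± 0.33 and -5.81 ± 0.65 (adjusted p = 0.00289, 2.82e-05 and 9.87e-07). Relative to hypoxic proliferating cells Boc rose by 3.87 ± 0.27 in chondrocyte and 5.06 ± 0.29 in osteoblast cultures (adjusted p = 3.18e-08 and 5.17e-10), and its change of -1.77 ± 0.90 in smooth muscle cultures was not called (adjusted p = 0.101). Ordered by group mean, Boc ran from normoxic osteoblast through normoxic chondrocyte, hypoxic osteoblast, normoxic smooth muscle and hypoxic chondrocyte cultures to the proliferating and hypoxic smooth muscle groups. The 4 groups from normoxic chondrocyte to hypoxic chondrocyte each overlapped their neighbour.

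**Figure D3:**
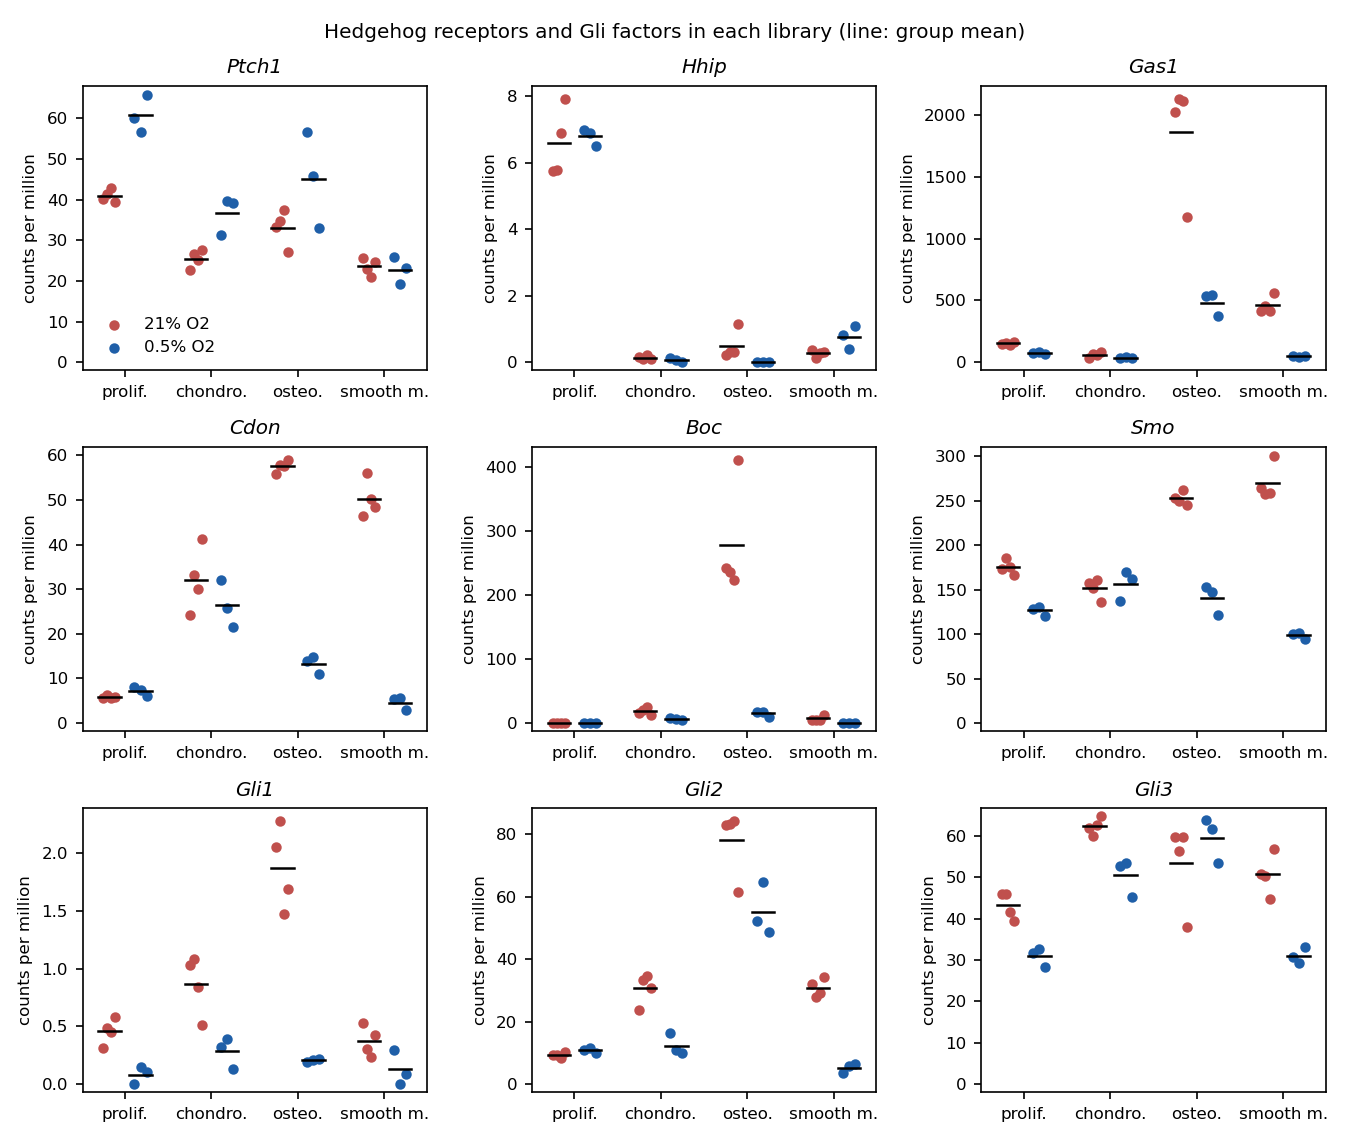
Level of each gene (CPM) in every library by culture state, in red for 21% O2 (4 libraries) and blue for 0.5% O2 (3 libraries), with a line at each group mean. Gas1, Boc, Cdon and Gli2 peak in osteoblast cultures at 21% O2, Hhip lies near 7 CPM in proliferating cells alone, and 1 normoxic osteoblast library (the fourth) sits apart for Gas1, Boc, Gli2, Gli3 and Hhip.

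Of the other proteins that bind ligand at the surface, only 3 or 4 of 6 were tested in a comparison. Sdc1, a heparan sulphate proteoglycan, rose in the 3 normoxic differentiation cultures, to 492 ± 34.2 CPM in chondrocyte and 466 ± 22.3 CPM in smooth muscle cultures from 138 ± 13.5 CPM in proliferating cells. It was at 61.9 ± 3.23 CPM in hypoxic smooth muscle cultures, lower, a log2 difference of -2.77 ± 0.08 (adjusted p = 2.43e-13). Gpc1, a glypican, was lower under hypoxia in chondrocyte cultures with a log2 difference of -1.40 ± 0.12 and in osteoblast cultures with a log2 difference of -1.29 ± 0.15 (adjusted p = 2.93e-05 and 1.24e-04).

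Smo, the transducer, varied least together with Ptch1 and Gli3, with a ratio of 2.74 between its highest and lowest group means. Levels were 173, 186, 176 and 166 CPM in normoxic proliferating libraries, 254, 250.2, 262 and 246 CPM in osteoblast and 264, 258, 259 and 300.0 CPM in smooth muscle libraries. Both differentiation groups lay above all proliferating libraries, with rises of 0.52 ± 0.05 and 0.59 ± 0.06 (adjusted p = 1.07e-05 and 1.21e-07). Chondrocyte libraries were slightly lower, at 157, 152, 161 and 137 CPM, a change of -0.18 ± 0.06 (adjusted p = 0.0179). That call was lost when normoxic proliferating library 2 or normoxic chondrocyte library 2 or 4 was left out (adjusted p = 0.0521, 0.0531 and 0.0609).

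At 0.5% O2 Smo stood at 128, 131 and 121 CPM in proliferating, 153, 147 and 122 CPM in osteoblast and 101, 101 and 94.3 CPM in smooth muscle libraries. All 3 groups were below every normoxic library of the same state, a log2 difference of -0.47 ± 0.05, -0.84 ± 0.10 and -1.31 ± 0.08 (adjusted p = 1.49e-06, 1.03e-04 and 1.18e-09). Chondrocyte libraries held 138, 169.8 and 163 CPM and overlapped the normoxic ones (0.03 ± 0.09, adjusted p = 0.851). Against hypoxic proliferating cells the changes were small: 0.31 ± 0.08 in chondrocyte cultures (adjusted p = 0.00396), -0.02 and not called with scaling by library size alone, 0.15 ± 0.09 in osteoblast cultures (adjusted p = 0.126, not called) and -0.18 ± 0.08 in smooth muscle cultures (adjusted p = 0.0497). The smooth muscle call was lost with relative log expression size factors (adjusted p = 0.146), with DESeq2 (0.150) and with mitochondrial and short RNAs left out (0.0514), among other alternatives.

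Between Smoothened and Gli stand Sufu, the protein that restrains Gli factors, and Kif7, the ciliary kinesin that works with it. They moved alike in smooth muscle cultures but differently in chondrocyte cultures. Sufu stood at 49.6, 52.7, 50.7 and 46.8 CPM in normoxic proliferating and 81.9, 86.3, 78.4 and 87.2 CPM in smooth muscle libraries, a rise of 0.71 ± 0.06 (adjusted p = 9.77e-09). It was lower in the hypoxic smooth muscle libraries, at 30.4, 27.1 and 26.8 CPM, a log2 difference of -1.43 ± 0.09 (adjusted p = 2.00e-09). Kif7 rose in 5 of the 6 differentiation comparisons, for example from 6.72, 7.996, 6.74 and 8.95 to 22.0, 24.5, 19.6 and 16.2 CPM in normoxic chondrocyte libraries, a change of 1.47 ± 0.14 (adjusted p = 1.09e-06). In hypoxic smooth muscle cultures Kif7 was at 4.91, 2.82 and 4.74 CPM, lower than in normoxic ones with a log2 difference of -1.96 ± 0.20 (adjusted p = 2.96e-07), and the change of -0.61 ± 0.26 from proliferating cells was not called (adjusted p = 0.0505). Kif7 did not differ by the test between oxygen levels in the other 3 states, where the differences were -0.08, 0.03 and 0.01.

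Among 31 transduction genes, 30 were tested in each comparison. Against normoxic proliferating cells, in osteoblast cultures 16 of 30 tested genes were called higher and 8 lower (all genes 40.9% and 37.8%, list median 0.44), in smooth muscle cultures 18 of 30 tested genes were called higher and 9 lower (all genes 40.8% and 38.9%, list median 0.33) and in chondrocyte cultures 11 of 30 tested genes were called higher and 11 lower (all genes 37.7% and 37.2%, list median 0.10). Against hypoxic proliferating cells, in osteoblast cultures 13 of 30 tested genes were called higher and 9 lower (all genes 36.2% and 35.1%, list median 0.06), in chondrocyte cultures 10 of 30 tested genes were called higher and 13 lower (all genes 34.9% and 34.6%, list median -0.13) and in smooth muscle cultures 7 of 30 tested genes were called higher and 16 lower (all genes 33.8% and 36.2%, list median -0.60). Between oxygen levels, in proliferating cells 12 of 30 tested genes were called higher and 6 lower (all genes 33.1% and 32.3%, list median 0.05) and in chondrocyte cultures 8 of 30 tested genes were called higher and 3 lower (all genes 10.4% and 11.8%, list median 0.05). In osteoblast cultures 9 of 30 tested genes were called higher and 9 lower (all genes 27.0% and 27.3%, list median -0.11), and in smooth muscle cultures 8 of 30 tested genes were called higher and 15 lower (all genes 35.4% and 40.2%, list median -0.31). Arrb2, a beta-arrestin that binds activated Smoothened, fell in chondrocyte and osteoblast cultures at both oxygen levels, from 15.3 ± 0.649 to 3.89 ± 0.578 CPM in normoxic osteoblast cultures, a log2 difference of -1.99 ± 0.12 (adjusted p = 2.23e-07). Arrb1, its relative, was higher at 0.5% O2 in all 4 states, from 3.01 ± 0.06 in proliferating cells (adjusted p = 2.08e-13) to 1.25 ± 0.11 in smooth muscle cultures (adjusted p = 1.04e-07), where scaling by library size alone gave -0.12, not called. Gpr161, a ciliary receptor that opposes the pathway, was lower in hypoxic smooth muscle cultures, at 4.98 ± 1.17 CPM against 37.3 ± 3.44 CPM.

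Genes of the primary cilium, in which the pathway operates, were tested in 38 or 39 of 39 cases. In normoxic smooth muscle cultures 28 of 38 tested genes were called higher and 4 lower (all genes 40.8% and 38.9%, list median 0.66), and in normoxic osteoblast cultures 25 of 39 tested genes were called higher and 4 lower (all genes 40.9% and 37.8%, list median 0.49). Normoxic chondrocyte cultures were more even: 15 of 38 tested genes were called higher and 12 lower (all genes 37.7% and 37.2%, list median 0.13). Against hypoxic proliferating cells, in hypoxic smooth muscle cultures 8 of 39 tested genes were called higher and 23 lower (all genes 33.8% and 36.2%, list median -0.58), in hypoxic chondrocyte cultures 7 of 39 tested genes were called higher and 18 lower (all genes 34.9% and 34.6%, list median -0.27) and in hypoxic osteoblast cultures 19 of 39 tested genes were called higher and 7 lower (all genes 36.2% and 35.1%, list median 0.18). Between oxygen levels, in proliferating cells 27 of 39 tested genes were called higher and 5 lower (all genes 33.1% and 32.3%, list median 0.38) and in osteoblast cultures 19 of 39 tested genes were called higher and 9 lower (all genes 27.0% and 27.3%, list median 0.23). In smooth muscle cultures the balance was the other way: 8 of 39 tested genes were called higher and 25 lower (all genes 35.4% and 40.2%, list median -0.76). In chondrocyte cultures 4 of 39 tested genes were called higher and 2 lower (all genes 10.4% and 11.8%, list median 0.08). Medians for all genes lay between -0.12 and 0.07 in these 10 comparisons. Bbs1, a component of the complex that carries receptors out of the cilium, stood at 1.67 ± 0.886 CPM in hypoxic and 12.8 ± 1.63 CPM in normoxic smooth muscle cultures. Wdr19, a retrograde transport subunit, rose in normoxic smooth muscle cultures from 13.3 ± 1.40 to 40.7 ± 1.56 CPM.

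Gli1, the Gli factor most often read as a sign of pathway activity, was scarce everywhere and lower under hypoxia in proliferating, chondrocyte and osteoblast cultures. Normoxic libraries held 0.310, 0.483, 0.447 and 0.583 CPM when proliferating, 1.03, 1.08, 0.844 and 0.510 CPM in chondrocyte, 2.05, 2.28, 1.47 and 1.69 CPM in osteoblast and 0.533, 0.302, 0.238 and 0.422 CPM in smooth muscle conditions. The osteoblast libraries lay above all others. Gli1 rose there by 2.02 ± 0.26 (adjusted p = 5.37e-05), with 58, 57, 43 and 52 counts against 12, 37, 14 and 17 in proliferating cells. In chondrocyte cultures the libraries overlapped and the rise of 0.96 ± 0.34 (adjusted p = 0.0232) was lost with scaling by library size alone, without filter, in 1 fit over 28 libraries and on leaving out any 1 of 5 libraries, proliferating 1, 2 or 3 or chondrocyte 1 or 2 (adjusted p = 0.0501 to 0.0723). The smooth muscle change of -0.32 ± 0.38 was not called (adjusted p = 0.453).

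At 0.5% O2 Gli1 had 0, 4 and 3 counts in proliferating, 10, 10 and 4 in chondrocyte, 5, 6 and 6 in osteoblast and 4, 0 and 1 in smooth muscle libraries. In osteoblast cultures Gli1 went from 1.47 to 2.28 CPM at 21% O2 to 0.194 to 0.214 CPM, a log2 difference of -3.15 ± 0.33 (adjusted p = 5.90e-05). Proliferating cells differed with a log2 difference of -2.44 ± 0.65 (adjusted p = 0.00443) and chondrocyte cultures with a log2 difference of -1.63 ± 0.49 (adjusted p = 0.0327), in both cases without overlap. The chondrocyte call was lost on leaving out any 1 of normoxic libraries 1, 2 and 3 or hypoxic libraries 1 and 3 (adjusted p = 0.0589 to 0.124). In smooth muscle cultures Gli1 was not tested, and its hypoxic libraries, at 0.293, 0 and 0.0895 CPM, overlapped the normoxic ones.

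Gli2, the main activator of the pathway in many tissues, rose in all 3 normoxic differentiation cultures. Its levels were 9.23, 9.37, 8.43 and 10.4 CPM in proliferating, 23.7, 33.5, 34.7 and 30.7 CPM in chondrocyte, 83.2, 83.4, 84.4 and 61.7 CPM in osteoblast and 32.2, 27.8, 29.3 and 34.4 CPM in smooth muscle libraries. All differentiation libraries exceeded all proliferating ones, with the osteoblast libraries far above the rest, and rises of 1.74 ± 0.12, 3.05 ± 0.12 and 1.69 ± 0.09 (adjusted p = 7.16e-08, 1.35e-08 and 8.88e-11).

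Under hypoxia the 3 states parted. Proliferating libraries held 11.1, 11.6 and 10.1 CPM, overlapping the normoxic ones (0.22 ± 0.11, adjusted p = 0.0886). Osteoblast libraries held 52.4, 64.8 and 48.6 CPM, a rise of 2.34 ± 0.12 (adjusted p = 1.02e-10). Chondrocyte libraries stayed at 16.4, 10.8 and 9.92 CPM, a change of 0.18 ± 0.17 that was not called (adjusted p = 0.363) and had no fixed sign across alternatives. Smooth muscle libraries dropped to 3.52, 5.73 and 6.53 CPM, below all proliferating ones, a log2 difference of -0.89 ± 0.23 (adjusted p = 0.00473). Relative to 21% O2, Gli2 was lower without overlap in chondrocyte cultures with a log2 difference of -1.32 ± 0.19 (adjusted p = 0.00121) and in smooth muscle cultures with a log2 difference of -2.43 ± 0.19 (adjusted p = 1.45e-08). In osteoblast cultures the libraries overlapped, and the difference of -0.49 ± 0.14 (adjusted p = 0.014) lost its call without hypoxic osteoblast library 1 or 3 (adjusted p = 0.0574 and 0.0679).

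Gli3, which acts mainly as a repressor when no ligand is present, kept within a ratio of 2.02 between its highest and lowest group means. Normoxic libraries held 46.0, 46.0, 41.5 and 39.3 CPM when proliferating and 61.8, 60.1, 62.6 and 64.9 CPM in chondrocyte conditions, which did not overlap, a rise of 0.56 ± 0.06 (adjusted p = 6.43e-06). Osteoblast libraries held 59.7, 56.2, 59.8 and 38.0 CPM, with library 4 below every proliferating library, and the change of 0.29 ± 0.14 was not called (adjusted p = 0.07) but was 0.38 and called without that library (adjusted p = 9.25e-05). The smooth muscle rise of 0.20 ± 0.08 (adjusted p = 0.0259) overlapped and was lost in fits over 28 or 25 libraries and without proliferating library 3 or 4 or smooth muscle library 1 or 4 (adjusted p = 0.0983, 0.0874, 0.0514 and 0.0817).

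Hypoxic proliferating libraries held 31.8, 32.6 and 28.4 CPM of Gli3, below all normoxic ones, a log2 difference of -0.49 ± 0.07 (adjusted p = 5.25e-05). From that lower level Gli3 rose in hypoxic chondrocyte libraries to 52.8, 53.4 and 45.3 CPM and in osteoblast libraries to 63.7, 61.6 and 53.4 CPM, by 0.71 ± 0.09 and 0.95 ± 0.09 (adjusted p = 9.42e-06 and 2.71e-07). Smooth muscle libraries, at 30.7, 29.2 and 33.2 CPM, did not move by the test (0.18 ± 0.11, adjusted p = 0.153). With scaling by library size alone that change was -1.10 and called lower (edgeR adjusted p = 3.44e-06). The same libraries stood below normoxic smooth muscle libraries with a log2 difference of -0.57 ± 0.11 (adjusted p = 1.92e-04). Osteoblast cultures showed no call between oxygen levels (0.16 ± 0.15, adjusted p = 0.395). The chondrocyte difference of -0.32 ± 0.08 (adjusted p = 0.00981) was lost without hypoxic chondrocyte library 3 (adjusted p = 0.0551) and in 1 fit over 28 libraries (adjusted p = 0.0552).

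Genes known to respond to Hedgehog in some tissue did not share 1 direction. Of 27 listed, 20 to 22 were tested in a comparison. Relative to normoxic proliferating cells, in chondrocyte cultures 10 of 22 tested genes were called higher and 8 lower (all genes 37.7% and 37.2%, list median 0.24), in osteoblast cultures 10 of 20 tested genes were called higher and 4 lower (all genes 40.9% and 37.8%, list median 0.47) and in smooth muscle cultures 13 of 21 tested genes were called higher and 7 lower (all genes 40.8% and 38.9%, list median 0.69). Relative to hypoxic proliferating cells, in chondrocyte cultures 10 of 22 tested genes were called higher and 9 lower (all genes 34.9% and 34.6%, list median -0.14), in osteoblast cultures 9 of 21 tested genes were called higher and 7 lower (all genes 36.2% and 35.1%, list median 0.25) and in smooth muscle cultures 4 of 21 tested genes were called higher and 10 lower (all genes 33.8% and 36.2%, list median -0.36). At 0.5% against 21% O2, in proliferating cells 10 of 21 tested genes were called higher and 6 lower (all genes 33.1% and 32.3%, list median 0.27) and in chondrocyte cultures 3 of 20 tested genes were called higher and 4 lower (all genes 10.4% and 11.8%, list median -0.12). In the same contrast, in osteoblast cultures 5 of 21 tested genes were called higher and 4 lower (all genes 27.0% and 27.3%, list median -0.02) and in smooth muscle cultures 4 of 21 tested genes were called higher and 12 lower (all genes 35.4% and 40.2%, list median -0.77). Medians for all genes lay between -0.12 and 0.07 in these 10 comparisons. Ccnd1, a cyclin of the G1 phase, fell in normoxic osteoblast cultures from 1146 ± 64.3 to 137 ± 25.4 CPM, a log2 difference of -3.08 ± 0.14 (adjusted p = 3.34e-08). A list of 12 cell cycle genes was called lower in 12 of 12 cases in the same comparison, where 37.8% of all genes were lower, and the part of cell division in the Ccnd1 value was not tested. Bmp4, a bone morphogenetic protein, rose in normoxic and hypoxic osteoblast cultures to 22.3 ± 6.17 and 18.3 ± 1.47 CPM. Sfrp1, a secreted Wnt antagonist, was lower at 0.5% O2 in chondrocyte, osteoblast and smooth muscle cultures, in the last at 4.40 ± 0.339 CPM against 402 ± 35.6 CPM at 21% O2.

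Whether differentiation changes differed between oxygen levels was tested with an interaction, the change from proliferating cells at 0.5% O2 minus that at 21% O2. For chondrocyte conditions 3 of 9 members were called, against 43.5% of all genes. For osteoblast conditions 7 of 9 were called, against 54.2%, and for smooth muscle conditions 7 of 9, against 70.4%. Boc had called interactions in all 3, -4.86 ± 0.63, -7.53 ± 0.94 and -9.12 ± 0.90 (adjusted p = 8.68e-06, 1.97e-05 and 7.99e-09), all resting on its 7 counts in normoxic proliferating cells. The Cdon change was lower at 0.5% O2, a smaller rise in osteoblast conditions (-2.38 ± 0.16, adjusted p = 9.14e-09) and no called rise in smooth muscle conditions (-3.56 ± 0.21, adjusted p = 1.64e-12), and in chondrocyte conditions its interaction of -0.58 ± 0.23 was not called (adjusted p = 0.0523), though it was in 6 of 10 alternative fits and in 3 of 14 fits with 1 library left out. Gas1 followed with -0.82 ± 0.26 and -1.96 ± 0.14 in osteoblast and smooth muscle conditions (adjusted p = 0.0142 and 2.39e-11).

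Gli2 had a called interaction in all 3 states, at -1.53 ± 0.23, -0.67 ± 0.17 and -2.61 ± 0.21 (adjusted p = 3.20e-05, 0.00341 and 3.60e-10), so its rise was smaller, or became a fall, at 0.5% O2. Smo also passed in all 3 but with mixed signs: 0.52 ± 0.11 in chondrocyte, -0.32 ± 0.11 in osteoblast and -0.80 ± 0.09 in smooth muscle conditions (adjusted p = 6.41e-04, 0.0192 and 1.03e-07), and its osteoblast call was lost without hypoxic proliferating library 2 (adjusted p = 0.0546). Gli3 had a positive interaction in osteoblast conditions, 0.70 ± 0.18 (adjusted p = 0.00417). Ptch1 passed in smooth muscle conditions alone, -0.43 ± 0.14 (adjusted p = 0.00828). Hhip fell further under hypoxia in osteoblast conditions, -7.06 ± 1.37 (adjusted p = 6.41e-04), a size that rests on a group with 0 counts, and less far in smooth muscle conditions, 1.68 ± 0.48 (adjusted p = 0.00361), the latter not called with scaling by library size alone (adjusted p = 0.498). Gli1 passed in none of the 3.

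**Figure D4:**
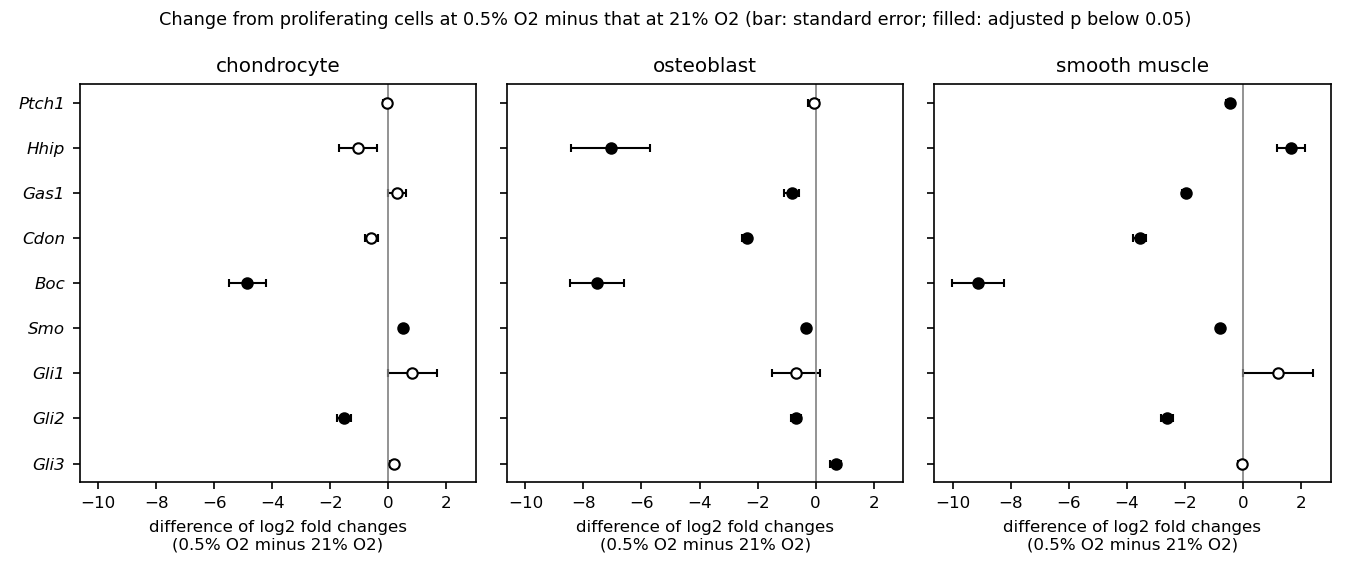
Interaction of each gene (log2 scale, bars are standard errors) for chondrocyte, osteoblast and smooth muscle conditions, with filled points where the edgeR adjusted p was below 0.05. Boc and Gli2 lie below 0 in all 3 panels, Boc at -4.86, -7.53 and -9.12, and the sizes for Boc and for Hhip in osteoblast conditions rest on groups with 7 and 0 counts.

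Across the 28 libraries, which share cell line, groups and scaling, some members ran closely together in log2 CPM. Gli2 and Boc had the highest correlation among the 9 genes (Pearson r = 0.90, Spearman rho = 0.91), followed by Cdon and Boc (0.84 and 0.80). Ptch1 stood aside, with r between -0.36 and 0.52 to the other 8, the highest being that to Hhip. Among 13436 genes, the most like Gli2 were Omd, a bone matrix proteoglycan (r = 0.97), and Zfp185 (0.96), and the most like Gas1 were Akr1c14 (0.97) and Net1 (0.95). Cdon was closest to Fut8 (0.98) and March3 (0.97), and Boc to Gpr155 (0.96) and Cdh18 (0.96). Msx1, a homeobox factor of the jaw primordia, was like Gli1 at r = 0.89. These are descriptions over libraries that fall into 8 groups, not independent samples.

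The authors' deposited tables give a log2 fold change of their own for the members in 10 comparisons, 90 values in all. For the 68 that were also called here, all 68 had the same sign in the authors' deposited tables, with a median difference of 0.0202 and a largest difference of 0.495 on the log2 scale.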

How the data were processed

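RNA of 28 samples was sequenced after polyA selection with a stranded kit, per the labels. The authors deposited raw counts per gene identifier and, for 10 comparisons, tables with log2 fold changes of their own. Per the submitters' processing notes, HISAT2 2.0.5, StringTie 1.3.3b, featureCounts 1.5.0-p3 and mm10 were used, with no role given; the annotation and the use of strand are not given in the sources used here. Of the deposited per-sample values, 70 columns were not used. Here, counts were tested in R 4.3.3 with edgeR 4.0.16 (quasi-likelihood, robust, trimmed mean of M values, a filter at 10 counts and 15 in total), over the libraries of each comparison, with Benjamini-Hochberg adjustment over all genes tested and a threshold of 0.05. Alternatives used DESeq2 1.42.0 and limma 3.58.1, other scalings, filters and fits, and each library left out. The fits were tested on simulated data. Positions and exon lengths come from GENCODE M21, promoters from RefSeq. Correlations used log2 CPM with 0.5 added. The 9 members and all gene lists were chosen with earlier results of these data known. Named beside the members are the ligands, Sufu, Kif7, genes among the 2 most like a member, and genes from at most the 2 largest called rises and 2 largest falls per list and comparison whose libraries did not overlap. Intervals and floors cover counting error only. Some items are not reported here.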

Additional observations from a re-analysis of the deposited data

Results flagged for a closer look

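Each of the 9 genes was checked in the 4 normoxic groups, 36 groups of 4 libraries, and in 7 the gap between 1 library and the nearest of the others, as a share of the group's range, was above Dixon's 95% critical value. Chance alone passes that value in about 1 in 20 independent groups, and these groups are not independent, since they share libraries. Library 4 of the normoxic osteoblast group accounted for 5 of the 7: Gli2 at 61.7 CPM against 83.2 to 84.4 in the others, Gli3 at 38.0 against 56.2 to 59.8, Hhip at 1.14 against 0.212 to 0.319, Gas1 at 1173 against 2027 to 2133 and Boc at 411 against 224 to 242. Its chondrocyte markers summed to 1634 CPM, against 209 to 229 CPM in libraries 1 to 3, and their part in these values was not tested. Library 4 of the normoxic smooth muscle group held Smo at 300.0 CPM against 258 to 264 and Boc at 13.1 against 5.26 to 5.53.

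The change from proliferating cells differed between oxygen levels, by the edgeR interaction test, in 17 cases. These were 3 of 9 members for chondrocyte, 7 of 9 for osteoblast and 7 of 9 for smooth muscle conditions. Among all genes 43.5%, 54.2% and 70.4% were called in the same tests. The Boc values rest on 7 counts in normoxic proliferating cells and the osteoblast Hhip value on a group with 0 counts. With scaling by library size alone the smooth muscle Hhip value was not called. For chondrocyte conditions the interaction was -1.53 for Gli2, 0.52 for Smo and -4.86 for Boc. For osteoblast conditions it was -0.67 for Gli2, 0.70 for Gli3, -0.32 for Smo, -7.06 for Hhip, -0.82 for Gas1, -2.38 for Cdon and -7.53 for Boc. For smooth muscle conditions it was -2.61 for Gli2, -0.43 for Ptch1, -0.80 for Smo, 1.68 for Hhip, -1.96 for Gas1, -3.56 for Cdon and -9.12 for Boc.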

How the results depend on the processing

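Of 111 tests of members, 85 were called, in comparisons where 22.2% to 79.7% of all tested genes were called. Of the 85, 72 kept call and direction in every alternative and every fit with 1 library left out. The other 13 are named with their results above, and the cause was not tested. Results that scaling by library size alone reversed or moved included Gli2 (-0.15) and Smo (-0.022) in hypoxic chondrocyte against hypoxic proliferating cultures. Against the same cultures they included Smo (-0.077) in hypoxic osteoblast and Gli3 (-1.10) and Tmem132a (-0.45) in hypoxic smooth muscle cultures. Between oxygen levels they included Hhip (-0.024) in proliferating and Smo (-0.046) in chondrocyte cultures. In smooth muscle cultures they included Ptch1 (-1.27), Arrb1 (-0.12) and Evc (-0.50) between oxygen levels and Gli1 (-0.066) in the interaction. In hypoxic smooth muscle against hypoxic proliferating cultures 5 members were called, 8 with library size alone and 3 with at least 10 counts in every library, where fewer genes were tested. A single fit over 28 libraries gave -0.012 for Hhip between proliferating cultures and 0.0050 for Ptch1 in the chondrocyte interaction, and no filter gave -0.028 for Ptch1 between smooth muscle cultures.

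With 1 library left out, Gli2 in hypoxic chondrocyte against proliferating cultures ranged from -0.062 to 0.33, Hhip between proliferating cultures from -0.023 to 0.13, Smo between chondrocyte cultures from -0.036 to 0.12 and Ptch1 between smooth muscle cultures from -0.026 to 0.18. Interactions ranged from -0.11 to 0.064 for Ptch1 (chondrocyte), -0.26 to 0.12 for Ptch1 (osteoblast), -0.30 to 1.83 for Gli1 and -0.10 to 0.018 for Gli3 (smooth muscle). These ranges hold under the main scaling only. Scaling by library size alone shifted the median of all genes in the smooth muscle interaction by -1.33. Between chondrocyte cultures 3 to 5 members and 2091 to 3359 genes were called.

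With the replicate number as a replicate block, members called between proliferating cultures went from 6 to 8 and Smo between chondrocyte cultures became -0.025; no count of calls moved by over 1.5 times. Called members that lost their call under the block were Gli1 in normoxic chondrocyte against proliferating cultures (adjusted p = 0.0575), Smo in hypoxic smooth muscle against hypoxic proliferating cultures (0.0760) and Hhip between smooth muscle cultures (0.1301). Same-numbered libraries correlated at -0.057 to 0.081, and in 5 of 33 pairs a library correlated best with its own number, so the numbers were not taken as a pairing. Counts of Gli1, of Hhip outside proliferating cells and of Boc in proliferating cells limit the precision of their changes.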
